A study of Mus musculus with 10 samples.

Results

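Translation initiation factors are the proteins that bring the ribosome, the initiator tRNA and the mRNA together at the start codon. The genes described here are those whose symbol is Eif followed by a digit from 1 to 6, without the Eif2ak kinases, which act on the factor eIF2 and are not factors themselves. Each gene was read from the brightest probe set, by its mean over 10 arrays, that carries this symbol alone. This gave 43 of 17204 genes tested, and all 43 had a log2 signal above 4 on at least 3 arrays. The gene table used here lists 52 protein-coding symbols that fit the rule, and 9 of them (Eif1, Eif2s1, Eif3g, Eif3j1, Eif3j2, Eif4a3l1, Eif4e1b, Eif4ebp3 and Eif4g1) were not analysed here.

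RNA of sorted splenic B cells was hybridized to 10 Affymetrix mouse arrays. Naive B cells (n = 4) came from unimmunized Balb/c mice. Germinal centre (GC) B cells came from 2 lines on the Balb/c background, B1-8 (n = 3) and V23 (n = 3). Both GC lines carry an immunoglobulin heavy chain transgene (VH186.2-Tg in B1-8, V23-Tg in V23) and a targeted deletion of the endogenous JH locus, so that their B cells use the transgenic chain. These mice received 50 µg of NP-CGG, a hapten on a carrier protein, in alum by the intraperitoneal route, and λ+ PNA+ B220+ spleen cells were sorted 14 days later. Immunization, transgene, JH deletion and sort all differ between GC and naive cells and cannot be told apart. The labels do not say that replicates are separate animals; p-values then measure only the spread between these samples, which may be technical.

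In eukaryotes eIF2 carries the initiator tRNA to the small ribosomal subunit, where eIF1, eIF1A and eIF3 are bound, and eIF2B recharges eIF2 with GTP after each round. The eIF4F complex, made of the cap-binding protein eIF4E, the scaffold eIF4G and the RNA helicase eIF4A, recruits the mRNA, and 4E-BP proteins block it by holding eIF4E until the kinase mTORC1 phosphorylates them. Lymphocytes are known for a low rate of protein synthesis at rest and a high one once they grow and divide.

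Most initiation factor genes were modestly higher in GC than in naive B cells. Set against naive cells, the average of the GC lines had 29 of 43 members called higher by limma, 3 lower and 11 neither, at a Benjamini-Hochberg adjusted p below 0.05 over all genes. Of all genes 41.5% were called, 20.5% higher and 21% lower (3521 and 3619 genes; 4437 and 2818 with each array centred on its median, which moved the median of all genes from 0.06 to 0.18). The median log2 fold change of the members was 0.36, against 0.06 for all genes tested, and the members ran from −1.28 to 1.20. In 28 members every GC array lay above every naive array, and in 5 every GC array lay below, while this held for 17% and 18.5% of all genes. Small changes are called more often where the signal is strong: among the 4406 genes averaging above log2 10, 37.5% were called higher and 27.8% lower, and of the 38 members in that range 28 were called higher and 2 lower. With naive replicates 2 and 4 left out, 24 members were called higher and 2 lower.

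**Figure D1:**
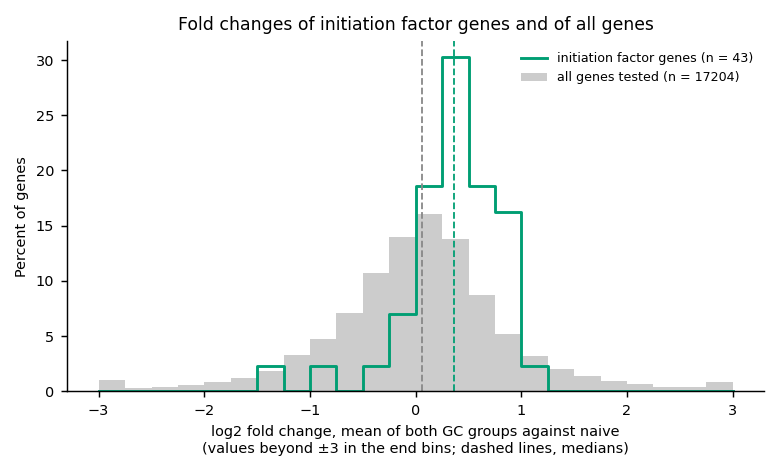
Percent of genes (y axis) by log2 fold change of GC (average of both lines) from naive cells (x axis), for the 43 initiation factor genes (green line) and all 17204 genes tested (grey bars). The dashed medians stand at 0.36 and 0.06, and few members lie below 0.

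Each line against naive gave a like picture from its own GC arrays and the same naive arrays. In GC B1-8 cells 22 members were called higher and 3 lower, where 16.4% and 17.3% of all genes were. In GC V23 cells 29 were called higher and 3 lower, where 18.2% and 19.7% of all genes were. The members called in both lines were 22 higher and 3 lower, against 14.5% and 15.5% of all genes. The 3 that fell in both were Eif1a, Eif4a2 and Eif4e3.

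**Figure D2:**
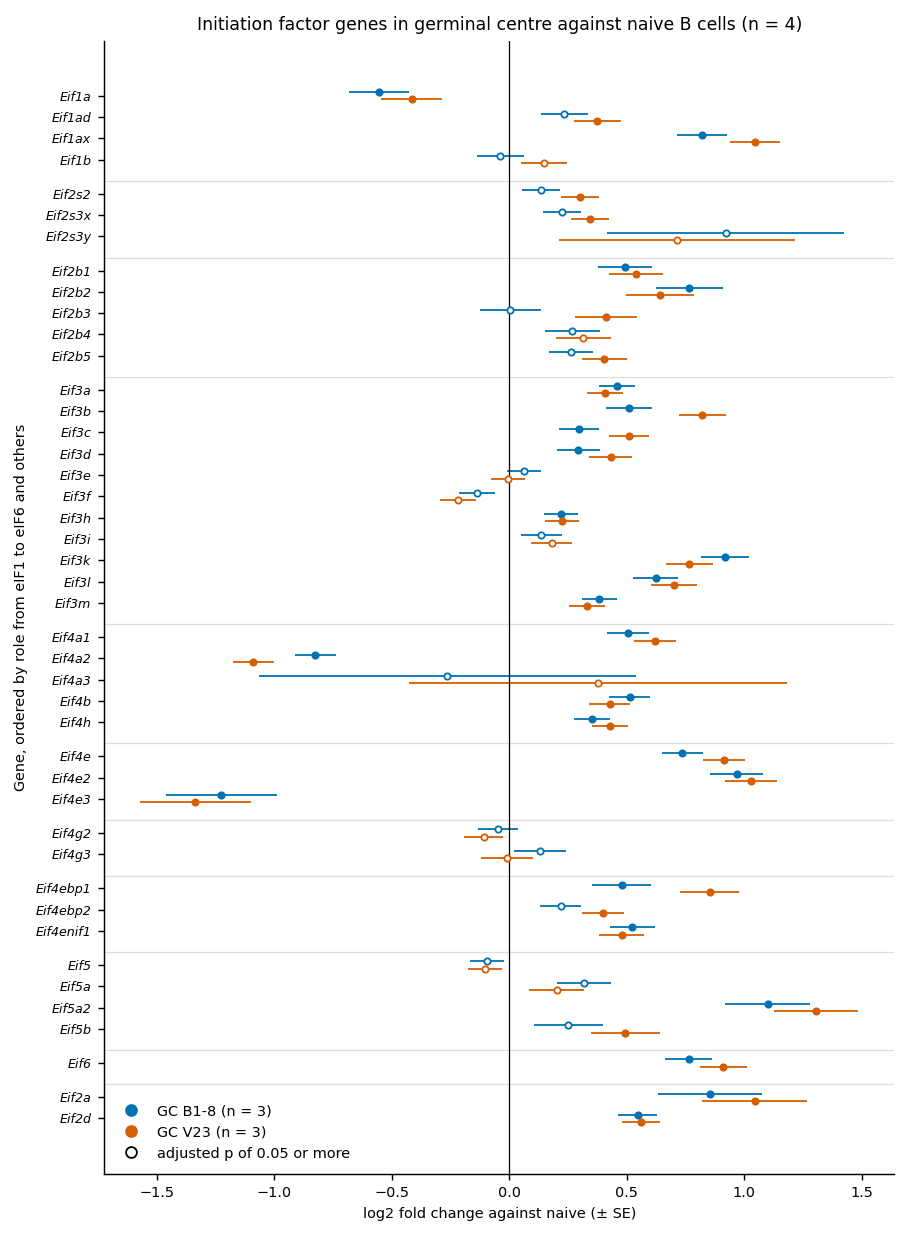
log2 fold change against naive (x axis, ± SE) of each initiation factor gene (y axis, by role) in GC B1-8 (blue) and GC V23 cells (orange); open points did not pass an adjusted p of 0.05. Most points lie right of 0, while Eif1a, Eif4a2 and Eif4e3 lie left of it in both lines. The wide bars belong to Eif2s3y and Eif4a3, whose signals are low.

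The array medians lay between log2 6.70 and 6.85, except on naive replicate 4 at 7.04. Of the cell type markers, 5 of 5 measured GC B cell markers and 5 of 5 proliferation markers rose, and 5 of 5 naive B cell markers fell. The mean level of the GC markers was 9.80 and 9.01 on naive replicates 2 and 4, against 8.08 and 8.24 on the other naive arrays. The 5 general B cell markers averaged log2 13.38 to 13.57 on naive and 12.73 to 13.27 on GC arrays, with Pax5 and Cd79a called lower. All 8 neutrophil markers rose, their mean level lying at 7.46 to 9.76 on naive and 11.20 to 12.09 on GC arrays. Of the other lists, 1 of 6 macrophage markers rose and 2 fell, 2 of 7 T cell and 2 of 4 erythroid markers fell, and 2 of 6 plasma cell markers rose and 1 fell. The 3′ minus 5′ difference of the Actb control probe sets, a measure of RNA integrity, was 1.46 ± 0.17 in the 4 naive, 0.98 ± 0.20 in the 3 B1-8 and 0.78 ± 0.08 in the 3 V23 samples (SD) (GC against naive, exact permutation p = 0.0048, two-sided, which is the lowest value 210 splits can give). The part of neutrophil RNA, of dividing cells and of RNA integrity in the results below was not tested. In such sorted samples more cells of a kind and more RNA per cell cannot be told apart.

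Promoters of initiation factor genes were searched because most members moved the same way. RefSeq (GRCm38.p6) promoters, 250 bases before to 50 after a transcript start, were at hand for 34 of 43 members (46 promoters) and 9 had none. The E-box CACGTG, the sequence that MYC with MAX can bind, was present in 23.9% of the member promoters, 7.15% of all 32851 promoters and 8.84% of those of the genes tested (the motif reads the same on both strands). The core of ETS factor sites, CCGGAA, searched on both strands, was in 50% of them, against 14.9% of all and 21.6% of those of tested genes. Member promoters are also richer in G and C, with a median of 62.7% against 52.7% over all promoters and 58.7% over those of tested genes, and several starts of 1 gene overlap. Of the 4 other motifs searched on both strands, TGACGT was in 21.7% of member promoters and 9.82% of those of tested genes, GCATGCG in 6.52% and 5.27%, CCAAT in 26.1% and 37.2%, and TATAAA in 6.52% and 9.52%. Of the 9 genes that have the E-box 6 were called higher, and of the 25 without it 20 were. For CCGGAA these counts were 14 of 19 and 12 of 15. In the windows below, read 5′ to 3′ on the gene's strand and lying wholly before its start, the capitals mark the E-box. The first 4 genes rose in GC cells, and the last 2, Eif1b and Eif3f, were not called.
Eif5a2, chr3:28781113-28781212, plus strand: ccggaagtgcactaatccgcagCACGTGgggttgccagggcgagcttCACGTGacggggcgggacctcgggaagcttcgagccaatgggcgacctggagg
Eif4e, chr3:138527157-138527256, plus strand: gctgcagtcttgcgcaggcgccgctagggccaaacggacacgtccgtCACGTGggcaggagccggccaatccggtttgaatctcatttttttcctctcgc
Eif3k, chr7:28981889-28981988, minus strand: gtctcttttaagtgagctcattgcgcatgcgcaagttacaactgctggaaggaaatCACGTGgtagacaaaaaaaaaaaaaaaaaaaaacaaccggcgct
Eif4a1, chr11:69672560-69672659, minus strand: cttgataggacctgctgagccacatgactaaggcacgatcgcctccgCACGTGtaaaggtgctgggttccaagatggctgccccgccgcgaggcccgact
Eif1b, chr9:120492506-120492605, plus strand: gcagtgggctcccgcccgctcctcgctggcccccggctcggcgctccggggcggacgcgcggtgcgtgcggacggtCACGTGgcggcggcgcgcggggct
Eif3f, chr7:108934300-108934399, plus strand: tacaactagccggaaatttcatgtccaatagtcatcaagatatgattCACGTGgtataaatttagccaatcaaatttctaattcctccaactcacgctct

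The eIF1 and eIF1A genes split 3 ways. These factors sit in the small subunit and govern which codon is taken as the start. Eif1ax, the X-linked gene of eIF1A, stood at log2 11.45, 11.35, 11.20 and 11.23 on the naive arrays, at 12.25, 12.19 and 11.95 in B1-8 and at 12.29, 12.42 and 12.35 in V23 samples. The groups did not overlap, and Eif1ax rose by 0.93 ± 0.09 (SE; adjusted p = 6.08e-05), a 1.91-fold higher signal. Its other probe sets averaged 7.54 and 9.41 and rose by 0.98 and 0.97. Eif1a, the autosomal copy, went the other way, from 10.83 to 10.93 on naive arrays to 10.11 to 10.61 on GC arrays, and fell by 0.49 on the log2 scale (adjusted p = 0.0067). Its probe set 1424344_s_at did not pass the test, at 0.15 ± 0.10, and the call ended with the mean of both probe sets and without naive replicates 2 and 4. Eif1ad, whose protein resembles eIF1A, stood at 10.29, 10.46, 10.20 and 10.17 in naive, 10.48, 10.54 and 10.52 in B1-8 and 10.52, 10.68 and 10.76 in V23 samples. It rose by 0.30 ± 0.08, with naive replicate 2 just below the GC arrays, and the call ended without naive replicate 3 or 4. Meanwhile Eif1b, a close relative of Eif1, was at 0.06 ± 0.08 (adjusted p = 0.64; −0.04 with quantile normalization).

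On their brightest probe sets the 2 called eIF2 genes changed little. Eif2s3x, the X-linked gene of the γ subunit that binds GTP and tRNA, lay at 12.37, 12.37, 12.33 and 12.33 in naive, 12.58, 12.65 and 12.49 in B1-8 and 12.59, 12.73 and 12.76 in V23 samples. Every GC array was above every naive array, and it rose by 0.28 ± 0.07 (adjusted p = 0.0098). The call ended with quantile normalization (adjusted p = 0.184) and without naive replicates 2 and 4. The dimmer Eif2s3x probe set 1421895_at rose by 0.64 ± 0.15, and 1423744_x_at by 0.27 ± 0.09. Eif2s2, the β subunit, rose by 0.22 ± 0.07 (adjusted p = 0.032), a call lost when any single naive array was left out. Its 4 other probe sets above log2 9 ranged from 0.31 to 0.67. Eif2s3y, the Y-linked copy, lay between 1.89 and 4.43 on all arrays, where values carry little order, and was not called (0.82 ± 0.43).

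Of the 5 genes of eIF2B, the exchange factor for eIF2, 4 rose. Eif2b2, the β subunit, stood at 10.84, 10.64, 11.04 and 11.05 in naive, 11.65, 11.76 and 11.56 in B1-8 and 11.57, 11.74 and 11.29 in V23 samples. All GC arrays lay above all naive arrays, with V23 replicate 3 the nearest to them, and it rose by 0.70 ± 0.12 (adjusted p = 0.0017). Its chosen probe set ends in _x_at, a form that can share sequence with other genes. The probe set 1451136_a_at gave 1.05 ± 0.12, while 1437428_x_at gave 0.36 ± 0.15 and was not called (adjusted p = 0.10 over all probe sets). Eif2b1 (α) rose by 0.52 ± 0.10. Eif2b5 (ε, the catalytic subunit) rose by 0.33 ± 0.08, but averaging its probe sets gave 0.02 (adjusted p = 0.94), the dim 1445908_at being at −0.30 ± 0.24. Eif2b4 (δ) rose by 0.29 ± 0.10, with an adjusted p of 0.042, a call that ended in 11 of 20 alternative fits. Eif2b3 (γ) was not called for the mean of both GC groups (0.21 ± 0.11, adjusted p = 0.17), and in V23 cells alone it was at 0.41 ± 0.13 against naive (adjusted p = 0.037). That V23 call ended in 8 of 20 alternative fits, among them those without any single V23 array or without naive replicate 2, 3 or 4 (adjusted p up to 0.19).

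eIF3 is the largest initiation factor, a scaffold on the small subunit that contacts eIF4G, and 8 of its 11 measured subunits rose. Eif3k stood at 12.10, 12.04, 11.90 and 12.13 in naive, 13.02, 12.99 and 12.86 in B1-8 and 12.95, 12.78 and 12.69 in V23 samples. The groups were well apart, and it rose by 0.84 ± 0.09 (adjusted p = 7.84e-05). Eif3b, which with Eif3a forms the centre of the complex, rose by 0.67 ± 0.08, and Eif3l, which pairs with Eif3k in the complex, by 0.66 ± 0.08. Eif3a rose by 0.43 ± 0.06, Eif3c by 0.40 ± 0.07, Eif3d, a subunit that can itself bind the cap, by 0.36 ± 0.08, Eif3m by 0.36 ± 0.06 and Eif3h by 0.22 ± 0.06. The Eif3h call ended with quantile normalization (0.11, adjusted p = 0.16) and on leaving out naive replicate 1, or replicates 2 and 4 together; the last also ended the Eif3d call. Quantile normalization also lowered Eif3a to 0.27, Eif3c to 0.26, Eif3d to 0.20 and Eif3m to 0.23, all still called. The direction of Eif3h turned with the mean of its probe sets (−1.54, adjusted p = 0.0040), which includes dim ones at −3.10 and −1.74, and that mean ended the calls of Eif3d (0.02), Eif3l (0.21) and Eif3m (0.58). Eif3e (0.03 ± 0.06), Eif3i (0.16 ± 0.07) and Eif3f (−0.18 ± 0.07) were not called. The Eif3i probe set 1448264_a_at, averaging 12.82, went the other way, at −0.31 ± 0.11 (adjusted p = 0.060 over all probe sets). For Eif3f, however, the naive arrays lay between 14.08 and 14.23 and the GC arrays between 13.87 and 14.03, without overlap.

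The helicase genes of eIF4F moved apart. eIF4A unwinds the start of the mRNA, and Eif4a1 and Eif4a2 encode near-identical forms of it. Eif4a1 stood at 12.60, 12.77, 12.65 and 12.74 in naive, 13.27, 13.23 and 13.08 in B1-8 and 13.36, 13.33 and 13.23 in V23 samples, and rose by 0.56 ± 0.07 (adjusted p = 3.73e-04). Eif4a2 stood at 13.72, 13.83, 13.86 and 13.79 in naive, 13.01, 12.83 and 13.07 in B1-8 and 12.76, 12.68 and 12.68 in V23 samples, and fell by 0.96 on the log2 scale (SE 0.07, adjusted p = 1.86e-05, the smallest of the 43). Neither gene's groups overlapped, and the GC signal of Eif4a2 was 0.515 of the naive one. The other Eif4a1 probe sets above log2 8 rose by 0.54 and 0.39, while Eif4a2 has only 1 probe set of its symbol alone. Eif4b and Eif4h, cofactors that stimulate the helicase, rose by 0.47 ± 0.07 and 0.39 ± 0.06. The Eif4h call rests on a probe set ending in _x_at: 1451521_x_at gave 0.54 ± 0.09, but 1416941_s_at 0.06 ± 0.08, and the mean of its probe sets −0.04 (adjusted p = 0.76). Eif4a3, a helicase of the exon junction complex, had a low signal on the probe set of its symbol alone (2.22 to 5.36 on all arrays), which allows no statement.

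**Figure D3:**
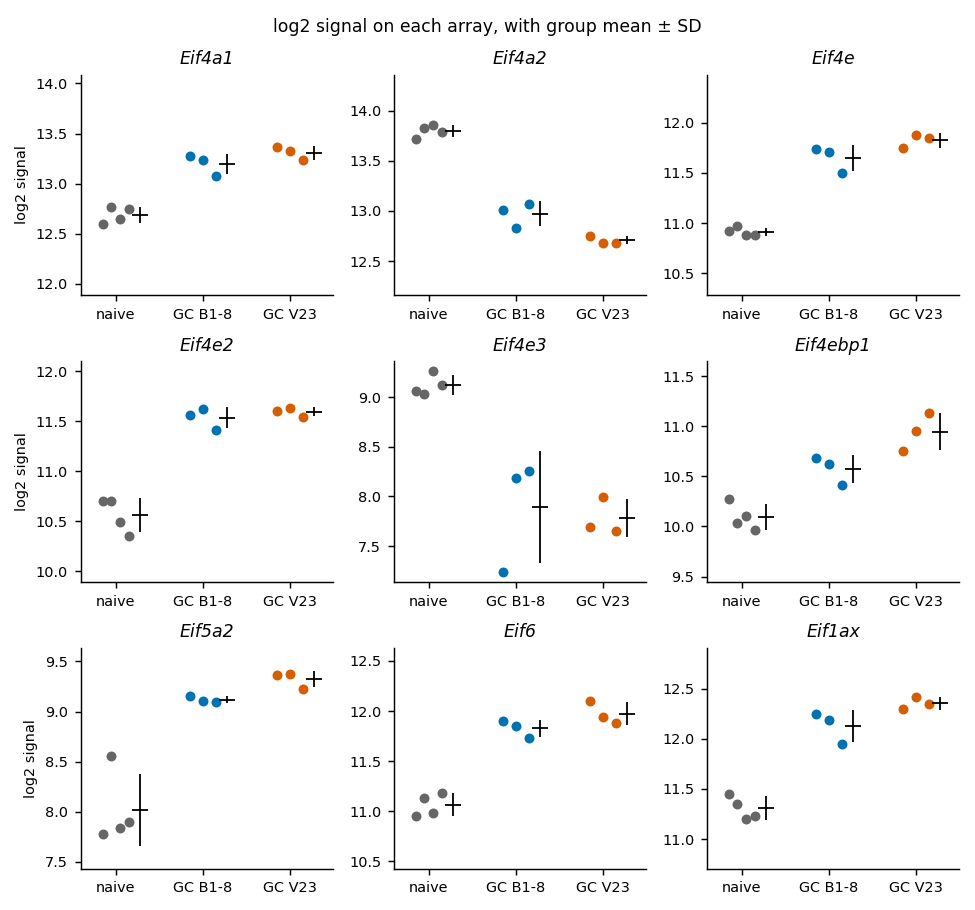
log2 signal (y axis) on each array for 9 initiation factor genes in naive (n = 4), GC B1-8 (n = 3) and GC V23 (n = 3) samples; black marks give the group mean ± SD. Each panel has its own axis, not starting at 0. Eif4a2 and Eif4e3 are lower on all 6 GC arrays, and the other 7 genes are higher on all 6.

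The 3 cap-binding genes were all called on their brightest probe sets, 2 higher and 1 lower, but the Eif4e2 probe sets disagreed. Eif4e, the main cap-binding protein and the limiting part of eIF4F in many cells, stood at 10.92, 10.97, 10.88 and 10.88 in naive, 11.74, 11.71 and 11.50 in B1-8 and 11.74, 11.88 and 11.85 in V23 samples. The groups did not overlap, and it rose by 0.82 ± 0.08 (adjusted p = 4.43e-05), a 1.77-fold higher signal. A dimmer probe set, 1423220_at, gave 0.93 ± 0.13. Eif4e3, a relative with weaker cap binding, stood at 9.06, 9.03, 9.26 and 9.12 in naive, 7.24, 8.18 and 8.25 in B1-8 and 7.70, 8.00 and 7.65 in V23 samples. It fell by 1.28 on the log2 scale (SE 0.20, adjusted p = 8.99e-04), with B1-8 replicate 1 the lowest, and its probe set 1417978_at gave −1.43 ± 0.25.

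Eif4e2, which encodes 4EHP, a cap-binding protein that represses translation, gave opposite results by probe set. On its brightest probe set it stood at 10.71, 10.70, 10.50 and 10.35 in naive, 11.56, 11.62 and 11.41 in B1-8 and 11.60, 11.63 and 11.54 in V23 samples, and rose by 1.00 ± 0.09 (adjusted p = 5.25e-05). The probe set 1421985_a_at rose by 0.81 ± 0.10. In contrast 1455108_at fell by 0.69 on the log2 scale (SE 0.09, adjusted p = 4.33e-04 over all probe sets), and 1435804_at was at −0.39 ± 0.16. With the mean of its probe sets the change was 0.08 (adjusted p = 0.48), so no direction can be given for the gene as a whole.

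Of the scaffold genes, Eif4g2 and Eif4g3 were not called on their brightest probe sets, and Eif4g1 was not analysed. The eIF4E-binding proteins rose. Eif4g2, also called DAP5, which lacks the eIF4E-binding part of eIF4G, stood at 13.88, 13.95, 14.00 and 13.85 in naive, 13.95, 13.83 and 13.83 in B1-8 and 13.71, 13.84 and 13.87 in V23 samples, with overlap (−0.08 ± 0.07; 0.05 with centring). Its dimmer probe sets 1415863_at and 1428362_at did rise, by 0.30 ± 0.09 and 0.44 ± 0.08. Eif4g3 was at 0.06 ± 0.09. Eif4ebp1, which encodes 4E-BP1, stood at 10.27, 10.04, 10.10 and 9.96 in naive, 10.68, 10.62 and 10.41 in B1-8 and 10.75, 10.95 and 11.13 in V23 samples. Both GC groups lay above naive, and it rose by 0.67 ± 0.11 (adjusted p = 0.0010) on a probe set ending in _x_at. Its probe set 1417562_at gave 0.64 ± 0.15, the dim 1417563_at −0.24 ± 0.09, and the mean of all 3 was 0.36 (adjusted p = 0.014). In B1-8 cells alone the call ended in 6 of 20 alternative fits. Eif4ebp2 stood at 11.27, 11.30, 11.25 and 11.44 in naive, 11.49, 11.61 and 11.50 in B1-8 and 11.64, 11.81 and 11.69 in V23 samples. It rose by 0.31 ± 0.07, with the lowest GC array only just above naive replicate 4. Eif4enif1, which encodes the eIF4E transporter 4E-T, rose by 0.50 ± 0.08.

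Of the late-acting factors Eif5a2 and Eif5b rose on the probe sets used. eIF5A carries the amino acid hypusine and helps the ribosome through difficult peptide bonds. Eif5a2, the copy with the narrower expression, stood at 7.78, 8.55, 7.84 and 7.90 in naive, 9.16, 9.10 and 9.09 in B1-8 and 9.37, 9.37 and 9.23 in V23 samples. Naive replicate 2 was above the other naive arrays but below all GC arrays, and Eif5a2 rose by 1.20 ± 0.15 (adjusted p = 2.83e-04), a 2.30-fold higher signal. Its probe set 1438256_at, averaging 7.98, was at 0.13 ± 0.13, and the mean of both was 0.67 (adjusted p = 0.0042). Eif5a, the common copy, stood at 13.70, 13.76, 13.74 and 13.77 in naive, 14.20, 14.11 and 13.88 in B1-8 and 14.13, 13.96 and 13.75 in V23 samples, and missed the call at 0.26 ± 0.10 (adjusted p = 0.064). On the dimmer probe set 1437859_x_at Eif5a rose by 1.28 ± 0.17. Eif5b, the GTPase that joins the subunits, rose by 0.37 ± 0.12 (adjusted p = 0.041), a call lost when any naive array was left out. The dimmer Eif5b probe set 1434605_at rose by 0.78 ± 0.11 (adjusted p = 5.51e-04 over all probe sets), and 1435592_at, averaging 7.12, was at 0.20 ± 0.20. Eif5, which triggers GTP hydrolysis on eIF2, was at −0.10 ± 0.06 (0.03 with centring). Its other probe sets went both ways. While 1454664_a_at rose by 0.60 ± 0.11, the dimmer 1456256_at fell by 0.51 on the log2 scale (adjusted p = 0.0455 over all probe sets). The probe sets 1433631_at and 1454663_at were at −0.13 ± 0.09 and −0.12 ± 0.12.

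Eif6, which keeps free large subunits from joining, stood at 10.95, 11.14, 10.99 and 11.19 in naive, 11.90, 11.85 and 11.74 in B1-8 and 12.10, 11.94 and 11.89 in V23 samples. The groups were far apart, and it rose by 0.84 ± 0.08 (adjusted p = 7.57e-05; 0.54 when its probe sets were averaged). The other tRNA-delivering factors rose as well. Eif2d stood at 10.57, 10.54, 10.58 and 10.57 in naive, 11.22, 11.03 and 11.08 in B1-8 and 11.21, 11.09 and 11.08 in V23 samples, and rose by 0.55 ± 0.07 (adjusted p = 2.59e-04). The Eif2d probe set 1451211_a_at rose by 0.66 ± 0.10. The dimmer 1455797_x_at (0.25 ± 0.17) and 1437720_at (−0.06 ± 0.18) were not called. Eif2a, a separate protein from the α subunit of eIF2, rose by 0.95 ± 0.19 on a probe set ending in _x_at. Its probe set 1460575_at gave 1.12 ± 0.10. The Eif2a call ended with the mean of its probe sets, which includes 1445563_at, averaging log2 −0.21.

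Whether paralogs changed unequally was tested on their log2 difference within each array, which does not depend on the overall scale of an array. Of 10 pairs set for this test, 7 had both genes measured. Exact two-sided permutation tests of 6 GC against 4 naive arrays were adjusted over these 7. Eif1ax was paired with Eif1ad, and Eif1a, its autosomal copy, was in none of the pairs. Eif4a1 minus Eif4a2 was −1.11 ± 0.07 (SD, n = 4) for naive cells, 0.22 ± 0.20 for B1-8 and 0.60 ± 0.05 for V23 (n = 3 for either line), a shift of 1.52. Eif4e minus Eif4e3 shifted by 2.11, Eif1ax minus Eif1ad by 0.63 and Eif5a minus Eif5a2 by −0.94. These 4 shifts had p = 0.0048, the smallest that the design allows, and an adjusted permutation p of 0.0083. Eif4a1 and Eif4e lay above naive, and Eif4a2 and Eif4e3 below, on every GC array. Eif4a1 minus Eif4a2 and Eif4e minus Eif4e3 therefore had to separate the groups, and their p-values are no further evidence beside the single-gene results. Eif4ebp1 minus Eif4ebp2 shifted by 0.36 (adjusted permutation p = 0.020) and Eif4e minus Eif4e2 by −0.17 (0.044), with overlapping arrays. The first missed the threshold without naive replicate 4 (adjusted permutation p = 0.083). The second missed it in 7 of the 10 fits with an array left out (adjusted permutation p up to 0.14). Eif2s3x minus Eif2s3y shifted by −0.53 (0.27). When probe sets were averaged by gene, the Eif5a shift was 0.10 and the Eif4ebp1 shift 0.05 (adjusted permutation p = 0.67 for both). That of Eif4e minus Eif4e2 turned to 0.55 (adjusted permutation p = 0.0083), while Eif4a1 minus Eif4a2 stayed at 1.46. Eif4a2 has 1 probe set of its symbol alone, so averaging could alter only Eif4a1 in that pair.

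**Figure D4:**
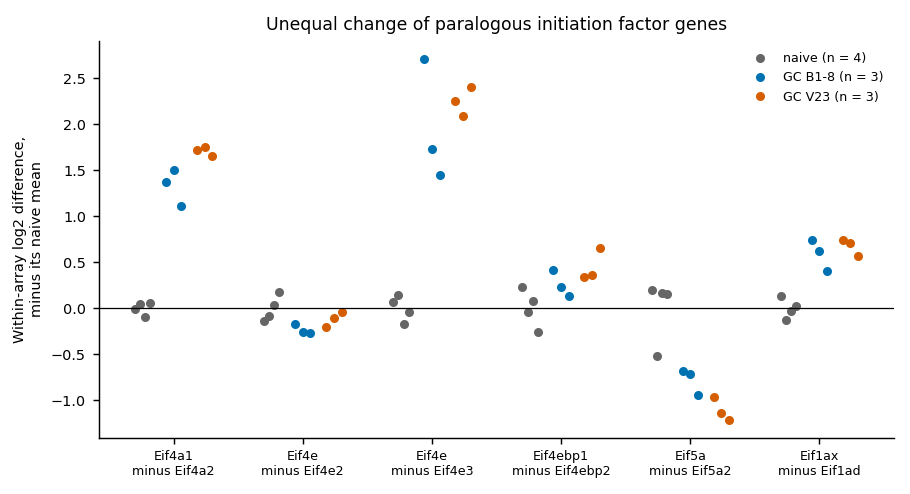
Within-array log2 difference of 6 paralog pairs (x axis), with the naive mean of each pair subtracted (y axis), on each naive (grey), GC B1-8 (blue) and GC V23 (orange) array. The GC arrays lie away from all naive arrays for 4 of the 6 pairs, and overlap them for Eif4e minus Eif4e2 and Eif4ebp1 minus Eif4ebp2.

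The size of a rise depended on the probe set. Of 37 other probe sets above log2 8 that belong to 19 of the members called higher, 23 gave a larger estimate than the brightest one, 11 a smaller one above 0 and 3 one below 0. Eif3a, at 0.43 on its brightest probe set, gave 0.24, 0.71 and 1.23 on probe sets averaging 12.28, 9.78 and 8.86. Likewise Eif3c gave 0.96 and Eif4b 0.89 on their dimmest ones above log2 8, against 0.40 and 0.47. Among the members' chosen probe sets, the 9 averaging above log2 13 had a median change of 0.16, with 3 called higher, and the 32 between log2 6 and 13 had a median of 0.42, with 26 called higher. The highest value on any array was log2 14.88. Whether strong signals are compressed on these arrays was not tested.

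**Figure D5:**
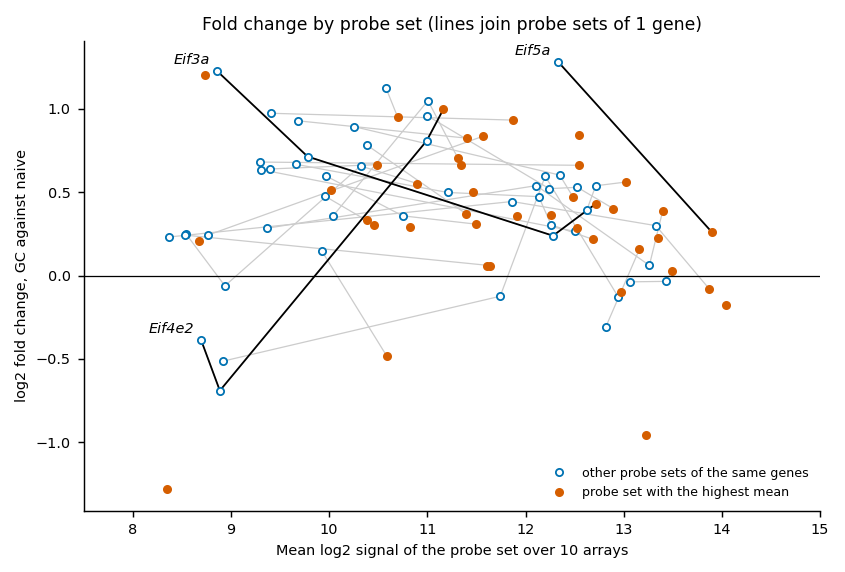
log2 fold change of GC against naive (y axis) by mean log2 signal over the 10 arrays (x axis) for each probe set of the members that averaged above log2 8; filled points are the probe sets used, open points the others, and lines join probe sets of 1 gene. Black lines mark Eif3a, whose probe sets span 0.24 to 1.23, Eif5a, and Eif4e2, whose probe sets lie on both sides of 0.

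GC B1-8 and GC V23 cells were then compared directly, a comparison that bears on GC B cells with different heavy chains. By limma 0 of 43 members were called, while 4 of all 17204 genes were (0.0233%; 0.00581% higher and 0.0174% lower in B1-8). At an unadjusted p below 0.05, 1 member was higher in B1-8 (4.78% of all genes were) and 4 were lower (2.94% of all genes). The smallest p-values were those of Eif3b and Eif2b3. Eif3b stood at 10.94, 10.92, 10.83 and 11.08 in naive, 11.48, 11.48 and 11.39 in B1-8 and 11.85, 11.85 and 11.60 in V23 samples, a B1-8 minus V23 difference of −0.31 ± 0.11 (adjusted p = 0.56). Eif2b3 stood at 8.68, 8.41, 8.58 and 8.52 in naive, 8.80, 8.29 and 8.57 in B1-8 and 9.04, 8.87 and 8.97 in V23 samples, a difference of −0.41 ± 0.14 (adjusted p = 0.56). In both genes every V23 array lay above every B1-8 array. Because both were picked for their small p-values, this separation is no further evidence of a difference between the lines. Eif4ebp1 (−0.37), Eif3c (−0.21) and Eif4a2 (0.26) made up the rest. The estimate was below 0 in 28 of 43 members and in 49.1% of all genes, with medians of −0.08 and 0.00. Of the 43 members 30 had a V23 change in the direction of the B1-8 change and further from naive, as did 51.5% of all genes. None of these differences passed the test, which does not show that the lines are alike.

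Regulators of initiation were read from lists of other genes, to be set against the 20.5% of all genes called higher and 21% called lower. Of the 4 eIF2 kinases, which slow initiation by phosphorylating eIF2, 2 rose and 2 fell: Eif2ak1, the haem-regulated kinase, rose by 0.78 ± 0.12 and Eif2ak3, or PERK, by 0.32 ± 0.07 (0.48 ± 0.08 in B1-8 and 0.17 ± 0.08, adjusted p = 0.15, in V23 cells), while Eif2ak2, the RNA-activated kinase PKR, fell by 1.49 on the log2 scale and Eif2ak4, or GCN2, by 0.56. Of 6 genes of the eIF2 phosphatase and stress response 1 rose and 4 fell, and Ddit3, which encodes CHOP, fell by 1.41 on the log2 scale and Impact, an inhibitor of GCN2 activation, by 1.00. Ppp1r15b, the constitutive phosphatase subunit, rose by 0.31 ± 0.07. Of 19 genes of the mTORC1 pathway 2 rose and 8 fell, with a median of 0.00. Ddit4 and Sesn3, which restrain mTORC1, fell by 1.40 and 0.66. Rhebl1, a relative of the mTORC1 activator Rheb, fell by 1.01, and Mtor itself fell by 0.41. Tbc1d7, a subunit of the inhibitory TSC complex, rose by 1.25 ± 0.17. The other gene that rose was Lamtor1, part of the complex that holds mTORC1 at the lysosome, at 1.26 ± 0.17; it is named after its value was seen. Rps6 was at 0.08 ± 0.10.

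Of 14 partners and modifiers of eIF4F, 3 rose and 7 fell, where 20.5% of all genes were called higher and 21% lower. Pdcd4, the inhibitor that binds eIF4A, fell by 2.31 on the log2 scale (SE 0.19, adjusted p = 2.68e-05), and Mknk1, a kinase of eIF4E, by 0.82. The poly(A)-binding protein gene Pabpc4 rose by 0.77 ± 0.07, and Pabpc1 was at −0.04 ± 0.09. Of 8 genes for scanning helpers, recycling and hypusine formation 2 rose and 2 fell, among them Dohh, which completes hypusine on eIF5A, at 0.90 ± 0.14, and Dhps, which begins it, at −0.29 ± 0.09. Of 11 elongation and release factors 2 rose and 2 fell: the release factors Etf1 and Gspt1 rose by 0.82 ± 0.08 and 0.61 ± 0.08, Eef2k, the kinase that halts elongation, fell by 1.72, and Eef1b2 fell by 0.25. Both mitochondrial initiation factors, Mtif2 and Mtif3, fell, by 0.30 and 0.62. The medians of these 7 lists lay between −0.49 and 0.09, against 0.36 for the initiation factors and 0.06 for all genes.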

How the data were processed

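RNA was measured on 10 Affymetrix mouse arrays, and the authors deposited log2 signals of probe sets. Per the submitters' processing notes the tool was GCRMA, but the deposited values have the form of scaled MAS5 signals: the mean of the unlogged signals, trimmed by 2% at each end, was 500.0 on every array. They were used without further normalization. Of 45101 probe sets 34958 carry 1 gene symbol in the platform annotation, 932 several and 9211 none. The brightest probe set stood for each of 18194 symbols, and genes above log2 4 on at least 3 arrays were tested. One limma 3.58.1 model (R 4.3.3) of the 3 group means was fitted to all 10 arrays (residual df 7, prior df 1.46, no intensity trend, two-sided), with Benjamini-Hochberg adjustment over all genes in each comparison. Changes are given ± SE, group values ± SD; a fall is given on the log2 scale. Arrays give no counts, so their number limits precision. Single probe sets were fitted the same way over all 41235 that passed the filter. The test was checked on simulated data.

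Members and lists were chosen with earlier results of these data known. Values on every array are given for the member of each role with the smallest p, members that changed by 1 or more, paralog pairs, and the 2 members nearest to differing between the lines. Of other lists, up to 4 called genes by smallest p and a few preset genes are named; other probe sets are named as a check. Alternatives were the filter, mean of probe sets, median centring, quantile normalization, raising values to a floor of log2 4, an intensity trend, array weights, fitting only the groups compared, a block for the replicate number, and leaving out single arrays. Leaving out naive replicates 2 and 4, which had the highest GC marker levels of the naive arrays, avoiding probe sets ending in _x_at or _s_at, and the counts above log2 10 were chosen after seeing the data. Same-numbered samples deviated together with r between −0.019 and 0.072 over 9 pairs, so the numbers were not taken as pairs. Figures were drawn with matplotlib 3.10.9.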

Additional observations from a re-analysis of the deposited data

Results flagged for a closer look

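In 5 of the 43 members the naive group held an array that stood apart from the other 3 by Dixon's test of the gap to the nearest array over the range of the group; chance gives this in about 1 of 20 groups. Eif5a2 was at 8.55 on naive replicate 2, against 7.78 to 7.90 on the others. Eif4enif1 was at 11.24 on the same array, against 11.14 on the others. Eif2b5 was at 10.06 on naive replicate 1, against 10.22 to 10.25. Eif3i was at 13.01 on naive replicate 1, against 13.08. Eif4g3 was at 11.47 on naive replicate 4, against 11.63 to 11.65.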

How the results depend on the processing

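The GC against naive counts stayed within 1.5 times the main ones in every alternative run: 25 to 35 of 43 members were called for both GC groups (28 to 31 with an array left out) and 0 for B1-8 against V23 (limma). The replicate number as a block gave 26 calls, all among the 32 (Eif1ad, Eif2b4, Eif2s2, Eif2s3x, Eif3h and Eif5b were not called), and 21 in B1-8 and 26 in V23 cells. Of 1697 alternative values of single genes 1559 kept their direction and side of the threshold, 73 lost a call, 32 gained one and 33 turned direction; the cause was not tested. The values that turned follow, as log2 changes against naive in B1-8, V23 or both GC groups. With array weights the value was −0.0319 for Eif2b3 in B1-8. With the replicate block the value was −0.0048 for Eif2b3 in B1-8. Without naive replicate 2 the value was −0.04 for Eif2b3 in B1-8. Without naive replicate 4 the value was −0.0048 for Eif2b3 in B1-8. Without B1-8 replicate 1 the value was −0.12 for Eif2b3 in B1-8, −0.0646 for Eif4a3 in both. Without B1-8 replicate 3 the value was −0.0037 for Eif2b3 in B1-8. Without naive replicates 2 and 4 the value was −0.0768 for Eif2b3 in B1-8. With the mean of probe sets the value was 0.13 for Eif4g2 in B1-8, −0.0022 for Eif4e2 in V23, 0.10 for Eif4g2 in V23, −1.54 for Eif3h in both, −0.0753 for Eif3i in both, 0.12 for Eif4g2 in both, −0.0439 for Eif4h in both. With median centring the value was 0.0539 for Eif4g2 in B1-8, 0.0391 for Eif4g2 in V23, 0.0465 for Eif4g2 in both, 0.0262 for Eif5 in both. With no _x_at or _s_at probe sets where another exists the value was 0.26 for Eif4g2 in B1-8, 0.34 for Eif4g2 in V23, 0.30 for Eif4g2 in both. With floor at log2 4 the value was −0.10 for Eif2s3y in V23, −0.0161 for Eif2s3y in both, −0.15 for Eif4a3 in both. With quantile normalization the value was −0.0402 for Eif1b in both, −0.0651 for Eif3e in both, −0.0885 for Eif4a3 in both, −0.032 for Eif4g3 in both. Without naive replicate 1 the value was −0.38 for Eif4a3 in both. Without naive replicate 3 the value was −0.22 for Eif4a3 in both. Without V23 replicate 1 the value was −0.18 for Eif4a3 in both. Without V23 replicate 3 the value was −0.0524 for Eif4a3 in both. Of the pairs, with the mean of probe sets Eif4e minus Eif4e2 was 0.55, Eif5a minus Eif5a2 0.10 and Eif4ebp1 minus Eif4ebp2 0.0511, and with the floor Eif2s3x minus Eif2s3y was 0.30. With an array left out these ranged from −0.22 to −0.11, −1.12 to −0.88, 0.27 to 0.43 and −0.91 to −0.0878. The highest such value was 0.14 for Eif2b3 in B1-8 and 0.67 for Eif4a3 in both. The number of arrays limits what small differences between the GC lines can be seen, and dim probe sets (Eif2s3y, Eif4a3) carry no order.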
